A study of Mus musculus with 6 samples.

Results

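Notch signalling was described through 10 genes, namely the receptors Notch1 and Notch2, the ligands Dll1, Dll4 and Jag1, the glycosyltransferase Lfng, the DNA-binding mediator Rbpj, the targets Hes1 and Nrarp, and the secretory cell factor Atoh1. They were taken by gene name from the deposited table, in which each of the 10 had a row among 28752 genes, and all 10 had enough counts to enter the test, as did 18348 genes in all. None of the 10 changed past the threshold between cells carrying the vector and cells overexpressing circEZH2_005.

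The cells were Lgr5+ intestinal stem cells, the dividing cells of the crypt base, sorted by flow cytometry from Lgr5-GFP mice (a green reporter driven from the Lgr5 gene) and grown as organoids, which hold differentiated daughters as well as stem cells. One group carried the vector (genotype label WT, n = 3), and the other was labelled circEZH2_005 overexpression and was infected with an adenovirus for circEZH2_005, a circular RNA made from the Ezh2 gene (n = 3). Both groups were cultured for 4 h at 2% O2 to induce hypoxia/reoxygenation (H/R) after 72 h of infection per the labels, so H/R is shared by all 6 samples and its own effect was not measured. The labels give neither the age of the mice nor how many mice each sample came from, and Ezh2 itself had a log2 fold change of -0.13 (standard error, SE, 0.10, edgeR adjusted p = 0.511), although oligo(dT) libraries do not report on the circular RNA.

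In Notch signalling, a ligand on one cell binds a receptor on its neighbour, the receptor is cut by an ADAM protease and then by gamma-secretase, and its intracellular part joins Rbpj at DNA to switch on targets such as Hes1. In the crypt, Hes1 represses Atoh1, the factor that commits a progenitor to the secretory lineages (goblet, Paneth, enteroendocrine and tuft cells), so that cells with high Notch activity remain progenitors or become absorptive cells. Stem cells carry the receptors, whereas Paneth cells and young secretory cells present Dll1 and Dll4.

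Each library held between 71506487 and 79919893 counts, and a count of 3 corresponded to between 0.0375 and 0.0420 CPM (the count per library, set to an equal depth in all samples), far below any member. The members had between 484 and 3729 counts in a sample, so the spread among 3 samples per group, rather than counting error, limited precision. Levels within a gene are given as CPM scaled by the trimmed mean of M-values (TMM), and levels between genes as FPKM (fragments per kilobase of transcript, scaled to library size), which accounts for transcript length. Over all genes, 674 of 18348 passed an adjusted p of 0.05 (3.67%), 493 of them higher with circEZH2_005 (2.69%) and 181 lower (0.986%). Stem cell markers were summed to between 2133 and 2974 CPM with the vector and between 1436 and 2079 CPM with circEZH2_005, without overlap. Olfm4, the most abundant of them, did overlap (1447, 2314 and 1511 CPM with the vector, 1383, 1003 and 1565 CPM with circEZH2_005). Of the 10 markers, 9 had a fold change below 0 and 1 above, and 4 fell past the threshold (Smoc2, Rgmb, Msi1 and Lgr5). Lgr5 had a log2 fold change of -0.88 (edgeR adjusted p = 0.0434). These 4 calls rest on few samples. Without vector sample 1 or without vector sample 3, only 2 genes of the whole table passed as lower, so not all 4 were kept. Leukocyte markers, typical of blood-derived cells, summed to between 92.9 and 257 CPM with the vector and between 339 and 583 CPM with circEZH2_005.

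Promoter sequences are shown first because Notch signalling acts through DNA sites. Rbpj acts at a core written TGGGAA and Hes-type repressors at sites written CACGNG, a pattern that also takes in the E-box CACGTG. RefSeq promoters (build GRCm38.p6, 250 bases before to 50 bases after the start) were found for 9 of the 10 members, with 11 promoters in all, and both strands were searched. TGGGAA was present in 25.6% of 32851 promoters and CACGNG in 27.5%. Among the members, Lfng and Rbpj held TGGGAA, and CACGNG was matched in every member with a promoter except Notch1 and Rbpj. Atoh1 had the largest number of CACGNG matches of the 9 (4 matches), ahead of Lfng (3 matches). The sequences below were chosen to show the 3 matches of Atoh1 that lie before its start and 1 TGGGAA match each of Lfng and Rbpj. They run 5′ to 3′ on the plus strand, which is the gene's strand in each case, and the capitals mark the motif on either strand.
Atoh1, chr6:64728982-64729011, motif from -131 relative to the start: attggctcctcgCACGCGcctgcccgcccc
Atoh1, chr6:64729018-64729047, motif from -95: tgactgggcagaCACGCGactggcgcaagg
Atoh1, chr6:64729072-64729101, motif from -41: gagatacactggCGCGTGccgctttttaaa
Lfng, chr5:140607221-140607250, motif from -108: ccgtatcccacgTGGGAAggagagatctcc
Rbpj, chr5:53590185-53590214, motif from -149: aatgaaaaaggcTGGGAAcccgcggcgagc
The Lfng core overlaps a CACGTG whose first base lies at -112. The RefSeq starts of Notch1 and Rbpj used here lie far inside the genes rather than at their first bases. The absence of CACGNG in Notch1 and Rbpj therefore concerns those starts only. No binding was measured, and a match is a description of the letters only.

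Receptors were compared first. Notch1 (chr2:26457903-26516663, minus strand, GRCm38) had 24.6, 27.4 and 27.9 CPM in vector samples 1 to 3 and 34.0, 30.3 and 27.0 CPM in circEZH2_005 samples 1 to 3. The groups overlapped, since circEZH2_005 sample 3 lay below vector samples 2 and 3, and the means were 26.7 ± 1.77 and 30.4 ± 3.54 CPM (SD, n = 3). Notch2 (chr3:98013527-98150361, plus strand) had 19.9, 19.8 and 23.2 CPM with the vector and 26.4, 21.3 and 18.6 CPM with circEZH2_005. The same library, circEZH2_005 sample 1, was highest for both receptors, and circEZH2_005 sample 3 had the lowest Notch2 level of all 6. The log2 fold change was 0.19 for Notch1 (SE 0.11, 95% interval -0.07 to 0.45, adjusted p = 0.348, edgeR) and 0.08 for Notch2 (SE 0.15, interval -0.26 to 0.42, adjusted p = 0.798, edgeR). These and all later adjusted p-values come from the quasi-likelihood fit of edgeR, corrected by the Benjamini-Hochberg procedure over every gene tested.

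Ligands were next. Dll1 (chr17:15367354-15376872, minus strand), the Delta ligand of secretory progenitors, had 33.9, 36.4 and 37.4 CPM with the vector and 28.0, 41.3 and 34.2 CPM with circEZH2_005. Its lowest and its highest level were therefore both found among the circEZH2_005 samples. Dll4 (chr2:119325784-119335962, plus strand), a second Delta ligand of secretory cells, had 14.6, 14.3 and 16.9 CPM with the vector and 9.12, 17.2 and 11.6 CPM with circEZH2_005. It was the most variable member within a group, its highest circEZH2_005 sample standing 1.89-fold above the lowest (coefficient of variation 32.9%), and sample 1 was the lowest and sample 2 the highest for Dll1 and Dll4 alike. The log2 fold change was -0.06 for Dll1 (SE 0.14, interval -0.38 to 0.27, adjusted p = 0.852, edgeR) and -0.27 for Dll4 (SE 0.23, interval -0.80 to 0.25, adjusted p = 0.520, edgeR), the latter being the widest interval among the members.

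Jag1 (chr2:137081456-137116644, minus strand), a ligand of the Serrate type, had 13.9, 15.7 and 14.8 CPM with the vector and 12.0, 13.5 and 13.6 CPM with circEZH2_005. All 3 circEZH2_005 samples lay below all 3 vector samples, on the CPM as on the FPKM scale. The difference was small against the spread in the fit across genes, with a log2 fold change of -0.18 (SE 0.11, interval -0.45 to 0.08, adjusted p = 0.386, edgeR), and a two-sided exact permutation test over the 6 samples gave p = 0.1, the smallest that 3 samples against 3 allow.

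Lfng (chr5:140607320-140615545, plus strand), which adds sugars to the receptor and changes its preference among ligands, had 6.68, 7.75 and 8.51 CPM with the vector and 10.3, 8.16 and 7.82 CPM with circEZH2_005. The groups overlapped, circEZH2_005 sample 1 being the highest, and the log2 fold change was 0.19 (SE 0.17, interval -0.20 to 0.59, adjusted p = 0.542, edgeR).

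Rbpj (chr5:53466152-53657362, plus strand), through which all receptors act on DNA, was the only member with an unadjusted p under 0.05 in edgeR. It had 33.4, 37.3 and 31.4 CPM with the vector and 46.9, 40.3 and 40.3 CPM with circEZH2_005, so that every circEZH2_005 sample lay above every vector sample, whereas on the FPKM scale vector sample 2 (2.74 FPKM) lay above circEZH2_005 samples 2 and 3 (2.64 and 2.68 FPKM). The means were 34.0 ± 3.00 and 42.5 ± 3.81 CPM (SD, n = 3), a 1.25-fold difference with a 95% interval of 1.06 to 1.47. Before adjustment p was 0.0145, which is common in this table, since 23.7% of all genes had a p under 0.05 (4346 genes). After adjustment it did not pass (log2 fold change 0.32, SE 0.10, edgeR adjusted p = 0.112), and the exact permutation test gave its smallest possible p of 0.1.

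The order of the samples in Rbpj partly resembled their order in leukocyte transcripts. Summed over the 12 leukocyte markers, the level was 92.9, 257 and 118 CPM in vector samples 1 to 3 and 583, 453 and 339 CPM in circEZH2_005 samples 1 to 3, and the 4 samples with the highest sums stood in the same order for Rbpj, although circEZH2_005 samples 2 and 3 were nearly equal in Rbpj. Vector samples 1 and 3, the lowest in both, stood in the opposite order. Notch1, Notch2 and Lfng also decreased from circEZH2_005 sample 1 to sample 3, so that part of the order was not particular to Rbpj. How many other genes share it was not counted. All 12 leukocyte markers had a fold change above 0 (median log2 fold change 1.63), although none passed the adjusted threshold. Ptprc, the common leukocyte antigen, was the most abundant of them. Sorting for Lgr5-GFP before culture would remove leukocytes, yet their transcripts were counted in all 6 libraries, and their part in the Rbpj difference was not tested. In bulk samples a change in the number of cells of one type and a change of RNA per cell cannot be told apart, which holds for each member.

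**Figure D1:**
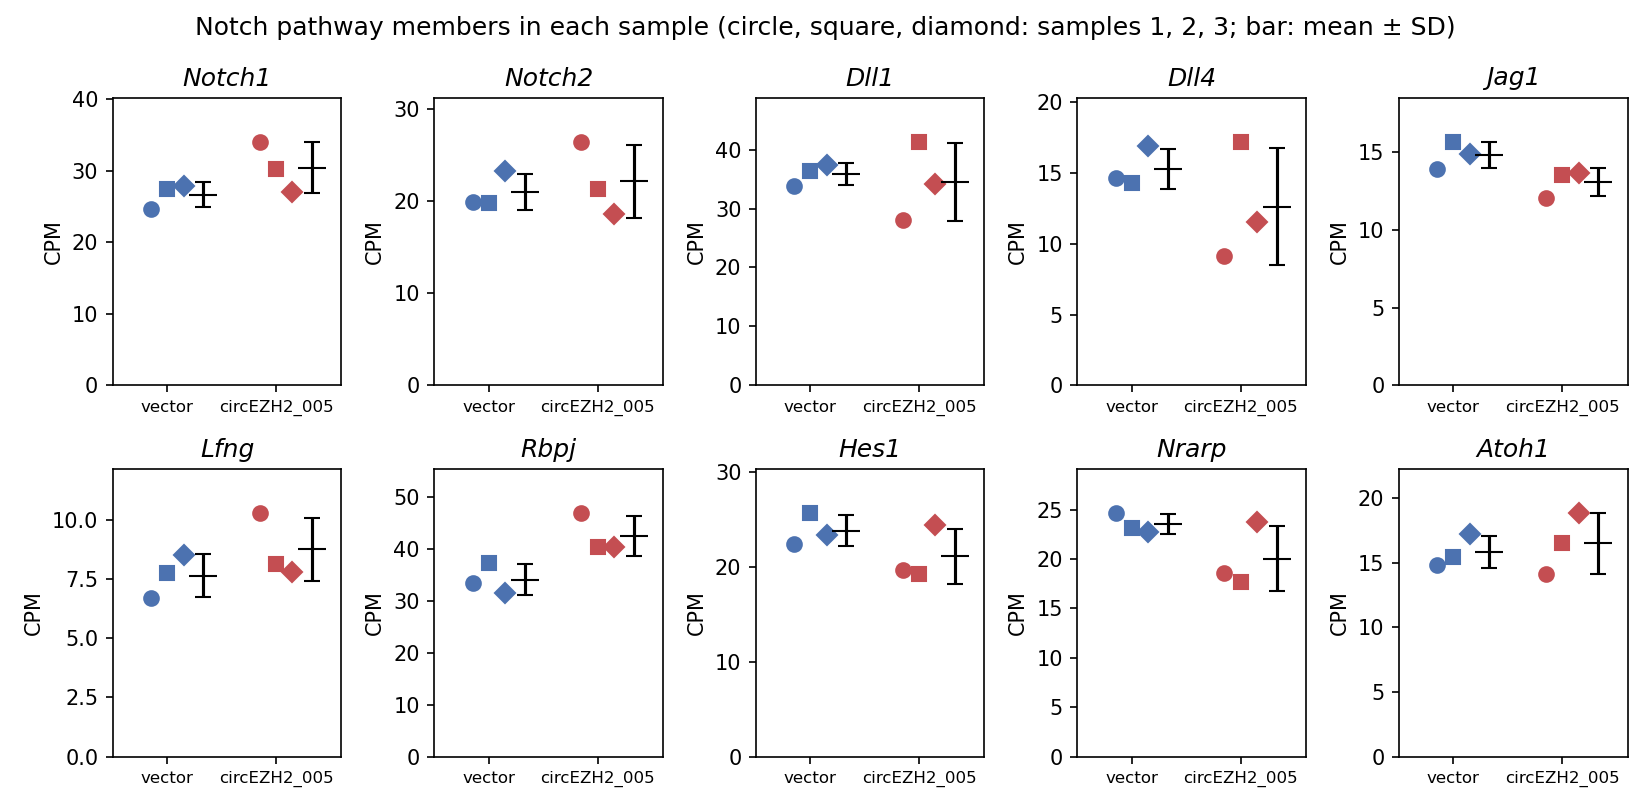
TMM-scaled CPM (y axis, linear from 0) of each of the 10 members in the vector (blue) and circEZH2_005 (red) samples, with circles, squares and diamonds for samples 1, 2 and 3 and bars for mean ± SD (n = 3). Only for Rbpj and Jag1 do the groups not overlap, and circEZH2_005 sample 1 is the highest sample for Notch1, Notch2, Lfng and Rbpj.

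Targets were then examined. Hes1 (chr16:30064384-30067796, plus strand), the repressor that answers Notch in the crypt, had 22.4, 25.7 and 23.4 CPM with the vector and 19.7, 19.3 and 24.4 CPM with circEZH2_005. Samples 1 and 2 with circEZH2_005 lay below all vector samples, while sample 3 lay above 2 of them. The log2 fold change of Hes1 was -0.17 (SE 0.12, interval -0.46 to 0.11, adjusted p = 0.442, edgeR).

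Nrarp (chr2:25180758-25183339, plus strand), a target that feeds back to limit Notch activity, had the same layout, with 24.6, 23.2 and 22.7 CPM with the vector and 18.5, 17.7 and 23.8 CPM with circEZH2_005. Again samples 1 and 2 were below every vector sample and sample 3 was among them. The log2 fold change was -0.23 (SE 0.13, interval -0.54 to 0.07, adjusted p = 0.331, edgeR).

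Atoh1 (chr6:64729125-64731245, plus strand), which Hes1 represses, had 14.8, 15.4 and 17.2 CPM with the vector and 14.1, 16.5 and 18.8 CPM with circEZH2_005. The lowest and the highest of the 6 values were both circEZH2_005 samples, and the means of 15.8 ± 1.22 and 16.5 ± 2.35 CPM (SD, n = 3) differed by less than the SD of either group. The log2 fold change was 0.06 (SE 0.14, edgeR adjusted p = 0.843), and its 95% interval of -0.26 to 0.38 leaves room for a modest change either way.

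Across the 10 members, 5 had a fold change above 0 and 5 below, with a median log2 fold change of 0.00, the same as over all genes tested. Their median absolute log2 fold change was 0.19, against 0.25 over all genes. None of 10 passed the adjusted threshold in edgeR, where 3.67% of all genes did, and none passed in DESeq2 or in limma on log2(FPKM + 1). An unadjusted p under 0.05 was found for 1 member in each of the tools, for Rbpj in edgeR and DESeq2 and for Nrarp in limma. All 10 intervals lay between a 0.5-fold and a 2-fold change, so a 2-fold change lay outside the 95% interval of every member. The direction was not stable for Notch2 and Atoh1, which had values below 0 with limma on FPKM, nor for Dll1, which stood above 0 without circEZH2_005 sample 1.

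Groups did not overlap for 2 of 10 members on the CPM scale (Rbpj and Jag1), against 30.6% of all genes tested. On the FPKM scale 2 members did not overlap (Jag1 and Nrarp), against 30.9% of all genes. Neither share exceeds the background. Exact permutation p-values over the 10 members ran from 0.1 to 0.8, with 2 at the smallest possible value. The scales differ by a factor common to all genes of a library, because relative to TMM-scaled CPM the FPKM of circEZH2_005 samples 2 and 3 differed from the vector mean by -9.84% and -8.35%, while circEZH2_005 sample 1 differed by 0.773%.

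**Figure D2:**
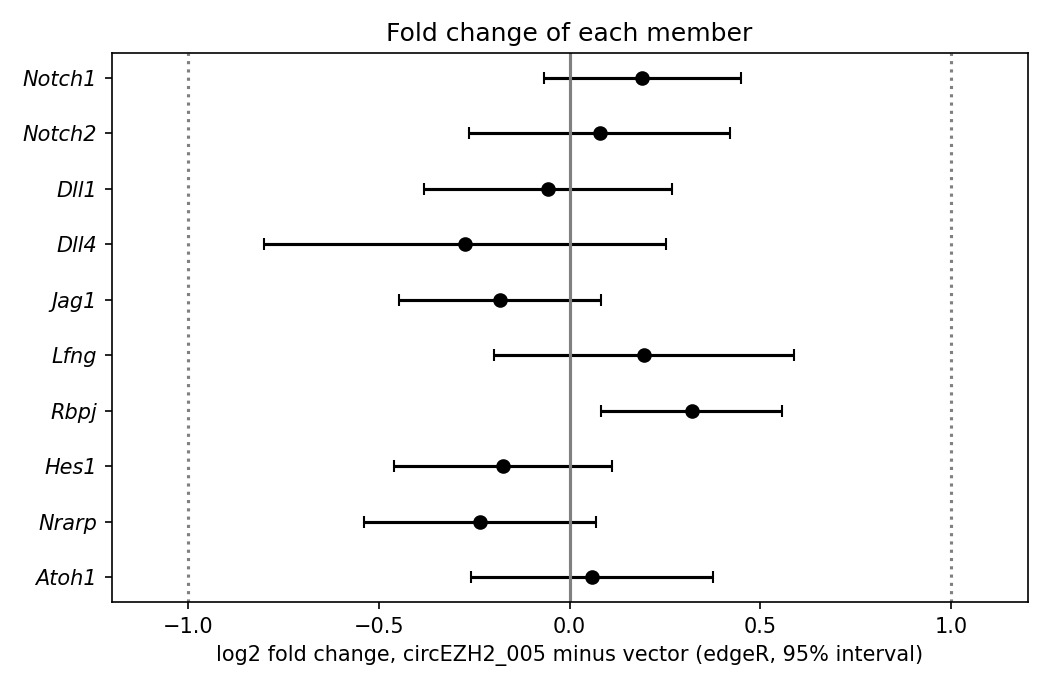
Log2 fold change of each member, circEZH2_005 minus vector (x axis), from edgeR with 95% intervals (n = 3 per group). All 10 intervals lie inside the dotted lines at a 2-fold change, and only that of Rbpj (0.08 to 0.56) leaves out 0.

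On the CPM scale the members spread more widely within the circEZH2_005 group than within the vector group. The coefficient of variation of CPM was larger with circEZH2_005 for all 10 members, and for 54.8% of all genes tested. It was 4.28% to 12.0% in the vector samples and 6.80% to 32.9% in the circEZH2_005 samples. On the FPKM scale Jag1 went the other way, with 2.35 ± 0.169 FPKM with the vector and 1.95 ± 0.0319 FPKM with circEZH2_005 (SD, n = 3). The members share libraries and are therefore not independent of each other. Sample 1 with circEZH2_005 was the lowest of the 6 for Dll1, Dll4, Jag1 and Atoh1 and the highest for Notch1, Notch2, Lfng and Rbpj.

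Levels between members were compared per length. Hes1 was the most abundant with a mean of 9.91 FPKM over the 6 samples, followed by Nrarp (7.58 FPKM), Dll1 (7.46 FPKM) and Atoh1 (6.82 FPKM). Dll4 (3.24 FPKM), Lfng (2.94 FPKM), Rbpj (2.69 FPKM) and Jag1 (2.15 FPKM) came next, and the receptors were lowest, with 1.80 FPKM for Notch2 and for Notch1. Neighbours in this order overlapped over the 6 samples, except for Atoh1 and Dll4, where the lowest Atoh1 sample (6.20 FPKM) stood above the highest Dll4 sample (4.06 FPKM). Among all genes tested, Hes1 lay at the 76.3 percentile of mean FPKM and Notch1 at the 44.7 percentile, so the receptors were near the middle of the expressed genes and the targets in the upper part.

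**Figure D3:**
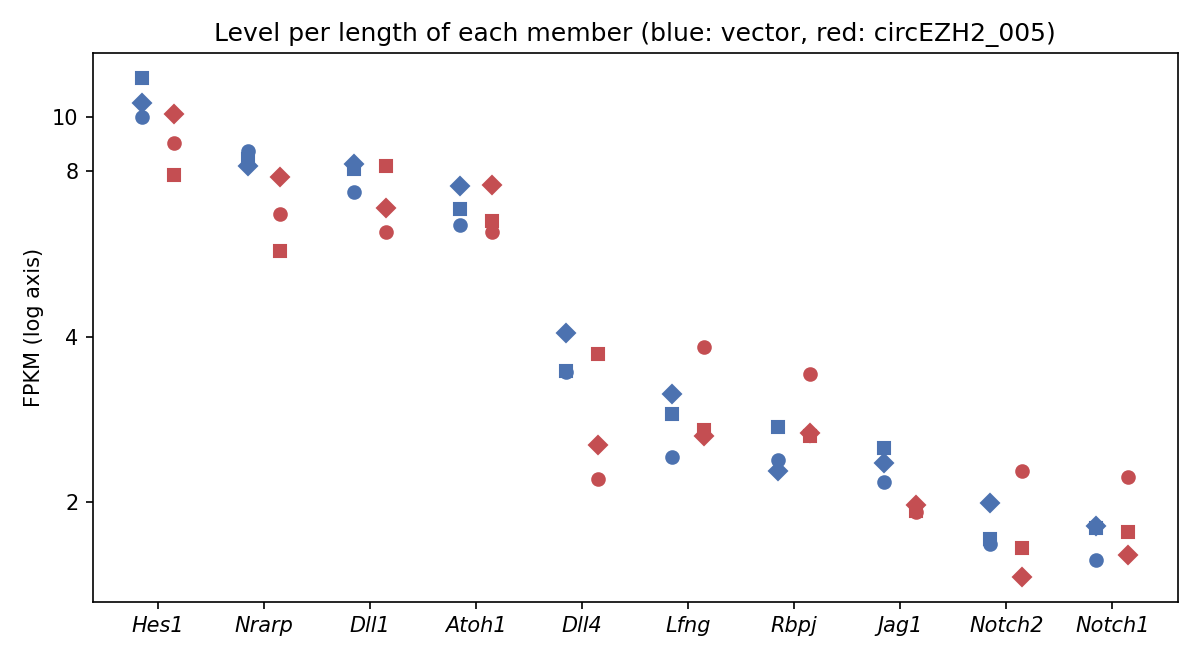
FPKM of each member in each sample (log axis), ordered by the mean of all 6 samples, with vector samples in blue, circEZH2_005 samples in red, and circles, squares and diamonds for samples 1, 2 and 3. The only gap between neighbours is that between Atoh1, with at least 6.20 FPKM, and Dll4, with at most 4.06 FPKM.

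Ratios within a library are independent of the scaling, and 4 were computed, chosen after the values had been seen. Hes1 over Atoh1, the repressor over its target, was 1.57, 1.73 and 1.41 in the vector samples and 1.45, 1.22 and 1.35 in the circEZH2_005 samples (FPKM over FPKM). These overlapped, as vector sample 3 lay below circEZH2_005 sample 1, and the exact permutation p was 0.2. Dll1 over Dll4 was 2.12, 2.32 and 2.02 with the vector and 2.80, 2.19 and 2.69 with circEZH2_005, overlapping in 1 sample (exact permutation p = 0.2). Rbpj over Hes1 was 0.238, 0.232 and 0.215 with the vector and 0.381, 0.335 and 0.264 with circEZH2_005, without overlap. Its exact permutation p of 0.1 is the smallest possible, and because Rbpj and Hes1 were set against each other with their values known, it is a description. Notch1 over Notch2 overlapped between the groups (exact permutation p = 0.2).

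The rest of the pathway was taken from 6 lists with 72 genes, of which 70 were in the table and 65 were tested. Of the 65, 5 passed the adjusted threshold (7.69%, against 3.67% of all genes), 2 higher and 3 lower with circEZH2_005, and 23 had an unadjusted p under 0.05 (35.4%, against 23.7%). These calls rest on few samples, since leaving out vector sample 1, vector sample 3, circEZH2_005 sample 2 or circEZH2_005 sample 3 left 0 pathway genes past the threshold, while leaving out vector sample 2 raised the number to 11. Of the 12 alternatives, 8 kept the call for Dtx3 and for Sox4, 5 for Hes6 and for Neurog3, and 3 for Kat2b, whose adjusted p ran from 0.00254 (DESeq2) to 0.167 (edgeR without vector sample 3).

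Among 5 receptors and ligands outside the members none passed (median log2 fold change -0.01). The smallest p was that of Jag2, a second Serrate-type ligand, with 2.47, 2.26 and 3.30 CPM with the vector and 1.12, 0.753 and 1.49 CPM with circEZH2_005. Jag2 was low and did not overlap between the groups, with a log2 fold change of -1.25 (SE 0.31, edgeR adjusted p = 0.0668). Among 10 genes of receptor processing none passed either (median 0.05), the smallest p being that of Furin, the protease that matures the receptor, with a log2 fold change of 0.39 (SE 0.10, edgeR adjusted p = 0.0649).

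Of 18 glycosyltransferases and ubiquitin ligases of the pathway, 1 rose and none fell (median log2 fold change 0.16). Dtx3, a ubiquitin ligase of the Deltex family, had 1.52, 2.13 and 1.84 CPM with the vector and 5.01, 5.34 and 5.16 CPM with circEZH2_005. The samples of each group lay close together and far from the other group, with a log2 fold change of 1.50 (SE 0.20, edgeR adjusted p = 0.0181). Of 13 nuclear co-factors of Rbpj, 1 rose and none fell (median 0.07). Kat2b, an acetyltransferase that serves as a co-activator, had 36.6, 38.8 and 33.4 CPM with the vector and 52.0, 52.5 and 46.5 CPM with circEZH2_005, a log2 fold change of 0.47 (SE 0.09, edgeR adjusted p = 0.0402), which did not pass with limma at either pseudocount (adjusted p = 0.0779 and 0.0787). Both genes stood beside the higher leukocyte sums of the circEZH2_005 samples, whose part in these differences was not tested.

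Of 5 targets outside the members, 1 fell and none rose past the threshold, while 3 had a fold change above 0 and 2 below (median log2 fold change 0.20). Hes6, a Hes family member that antagonises Hes1 rather than acting as a usual Notch target, had 36.8, 30.4 and 38.3 CPM with the vector and 21.3, 22.1 and 25.3 CPM with circEZH2_005. The groups were separate, and the log2 fold change was -0.62 (SE 0.12, edgeR adjusted p = 0.0402). Heyl, a low target of the same list, went the other way, with 0.649, 2.01 and 1.11 CPM with the vector and 4.44, 4.00 and 3.60 CPM with circEZH2_005. Every circEZH2_005 sample lay above every vector sample, but Heyl did not pass (log2 fold change 1.67, SE 0.39, edgeR adjusted p = 0.0578).

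Secretory lineage factors, which act downstream of or beside Atoh1, were tested for 14 genes, of which 2 fell and none rose, with 11 of 14 fold changes below 0 and a median log2 fold change of -0.41. Over all genes tested, 0.986% fell past the threshold, 50% had a fold change above 0 and the median was 0.00. Neurog3, the factor that founds the enteroendocrine lineage, had 3.87, 3.40 and 3.16 CPM with the vector and 1.71, 1.34 and 1.76 CPM with circEZH2_005. Every circEZH2_005 sample was thus well below every vector sample (log2 fold change -1.11, SE 0.21, edgeR adjusted p = 0.0394). Sox4, a factor of early secretory and stem cells, had 41.1, 34.1 and 50.6 CPM with the vector and 22.7, 17.9 and 20.2 CPM with circEZH2_005 (log2 fold change -1.05, SE 0.16, edgeR adjusted p = 0.0235). Both fell beside the stem cell markers given above, and the part of cell composition in their difference was not tested. Strand was not stated for the counting, and Neurog3, Sox4, Furin, Dll1, Dll4, Notch1 and Nrarp each overlap an exon on the other strand, while Notch2 overlaps one on its own strand.

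**Figure D4:**
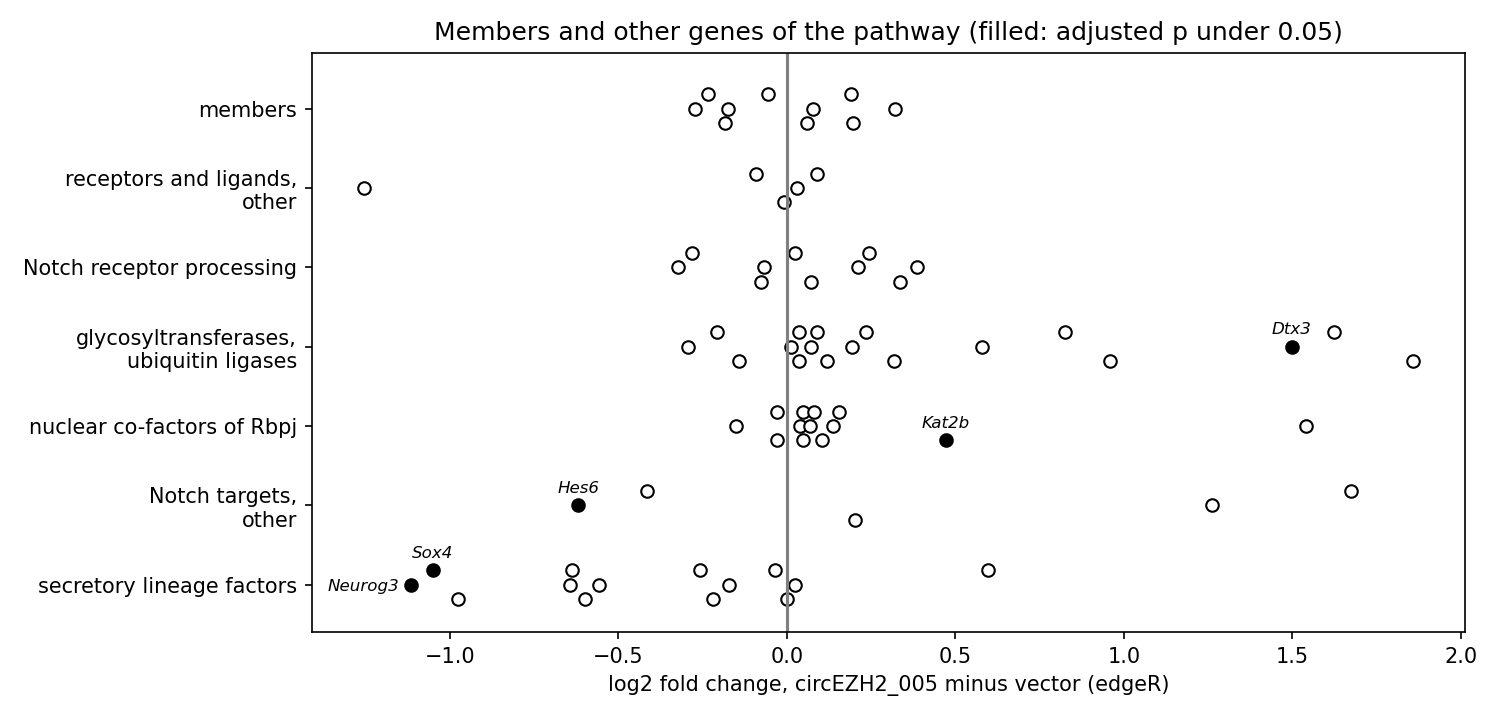
Log2 fold change (x axis, circEZH2_005 minus vector, edgeR) of the members and of the genes tested in the 6 other lists of the pathway, 1 circle per gene, filled where the adjusted p was under 0.05. The members lie between -0.27 and 0.32 with no filled circle, and the 5 filled circles are Dtx3, Kat2b, Hes6, Neurog3 and Sox4.

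Differentiated cell markers are given beside Atoh1 and its lineages, and they were present in every sample, although the samples are labelled as crypt stem cells. Goblet markers summed to between 5669 and 7252 CPM with the vector and between 6579 and 8241 CPM with circEZH2_005 (led in level by Fcgbp). Of these 7 markers, 5 had a fold change above 0 and 2 below, and 1 rose past the threshold (Clca1). Paneth markers summed to between 3925 and 6880 CPM and between 2412 and 4215 CPM, with 7 of 7 fold changes below 0 and none past the threshold (led in level by Lyz1). Enteroendocrine markers summed to between 246 and 253 CPM and between 231 and 255 CPM (led by Chgb), and tuft markers to between 26.9 and 34.0 CPM and between 26.0 and 31.1 CPM (led by Trpm5), with none past the threshold in either list. Absorptive enterocyte markers summed to between 14362 and 16744 CPM and between 15128 and 27448 CPM (led in level by Sis). Of these 10 markers, 8 had a fold change above 0 and 2 below, Sis being among the latter. Past the threshold, 2 rose (Apoa4 and Krt20). Endothelial markers summed to at most 8.01 CPM (led in level by Pecam1), and 6 of the 10 had too few counts to be tested. Of the 4 tested, 2 had a fold change above 0 and 2 below, and 1 rose past the threshold (Pecam1). Fibroblast and muscle markers (led by Col3a1, none of 9 passed) summed to at most 11.9 CPM.

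The genes closest to Atoh1 and to Hes1 in profile were sought by the root mean square difference of centred log2 CPM over the 6 samples, searching 13349 genes whose mean was 1 CPM or more. For Atoh1 they were Emilin1 (0.0389), Prnp (0.0472), Car8 (0.0516), Smg9 (0.0542) and Nat9 (0.0558), against a spread of Atoh1 about its own mean of 0.138. For Hes1 they included Polr2j (0.0466), Sms-ps (0.0509), Septin10 (0.0511) and A130010J15Rik (0.0522), against a spread of 0.153. None of these genes belongs to the 6 pathway lists. The genes were picked as the nearest of 13349 over only 6 samples, so small distances are built into the search and are a description.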

How the data were processed

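RNA sequencing was measured in 6 samples, grouped by the labels. The authors deposited 1 table with a count of reads and an FPKM value per gene and sample. The submitters' processing notes list cutadapt 1.9, HISAT2 2.0.4, StringTie 1.3.4d, DESeq2 and build mm10, without saying what each did. Vector is the only control in the labels, so the columns named as a negative control were read as vector, and 0 sample columns were left unused. FPKM values served for levels between genes and for ratios. The members and lists were chosen with earlier results of these data known.

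Counts were filtered with filterByExpr, scaled with TMM and fitted in edgeR 4.0.16 (R 4.3.3), whose quasi-likelihood test gave the p-values. Adjusted p-values are Benjamini-Hochberg over 18348 genes. Dividing a log2 fold change by the root of its F statistic gave its standard error (SE). Exact permutation tests (scipy 1.17.1) were two-sided. The script was tested on simulated data. Depth was between 71506487 and 79919893 counts per sample, and count floors cover counting error only. The reporting summary of the study calls replicates independent and biological. The labels do not say so for these samples, so p-values measure the spread between them.

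Named genes were the members, every pathway gene with an adjusted p under 0.05 or, for a list with none, that with the smallest p, the most abundant marker of each list, the 5 genes closest to Atoh1 and to Hes1, and Ezh2. One of these genes is not reported here. Other markers past the threshold (Lgr5, Smoc2, Rgmb, Msi1, Clca1, Apoa4 and Krt20) and the target Heyl were named after their values were seen. Alternatives were DESeq2 1.42.0, median-of-ratios scaling, no filter, limma 3.58.1 on log2(FPKM + 1) or log2(FPKM + 0.1) for genes averaging 0.5 FPKM or more, a replicate block, and each sample left out. Positions are from GENCODE M21 (GRCm38), which held 28678 of 28752 identifiers. Hes1 was matched to no promoter entry.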

Additional observations from a re-analysis of the deposited data

How the results depend on the processing

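None of the 10 members passed an adjusted p of 0.05 under any of the 12 alternatives, the lowest adjusted p being 0.0767 (edgeR, Rbpj without vector sample 2). Of 120 member values, 113 kept their direction and 7 reversed. With limma on log2(FPKM + 1) and log2(FPKM + 0.1) the log2 fold change was -0.0079 and -0.018 for Notch2 and -0.031 and -0.036 for Atoh1. With these fits the median log2 fold change over all shared genes moved by -0.066 and -0.087 from the main fit. With 1 sample left out it ranged from -0.070 to 0.19 for Notch2, from -0.21 to 0.072 for Dll1 and from -0.049 to 0.16 for Atoh1. The cause was not tested. Calls over the whole table moved more. DESeq2 gave 2272 (1574 higher, 698 lower), no filter 169 (132 and 37), and the replicate block 277 (241 and 36). With limma 364 genes were lower with a pseudocount of 1, and 323 were higher and 319 lower with 0.1. The share of calls that were higher was 73.1%, but 50.2% and 50.1% with limma and 87.0% with the replicate block. Leaving out 1 sample gave 28 to 1432 calls (26 to 1098 higher, 2 to 334 lower). The 5 pathway calls became 18 with DESeq2, 2 without a filter, 3 with the replicate block and 0 to 11 with 1 sample left out. Same-numbered samples did not deviate together (correlations -0.14, -0.02 and 0.04). Differently numbered samples gave similar values (-0.13 to 0.15), so this check cannot tell whether samples were paired.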
